A study of Mus musculus with 12 samples.

Results

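The 39 genes described here copy DNA or prepare cells for S phase, the stretch of the cell cycle in which the genome is replicated. They were taken as a list of gene names covering origin licensing, the MCM helicase and its activation, polymerases, clamp loading, Okazaki fragment joining, nucleotide supply, chromatin copying and the S phase checkpoint. All 39 were measured, among 23279 named genes on each of 12 arrays. The choice used no expression value of these arrays, although results for them were already known when the list was drawn up.

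The arrays hold total RNA of inflammatory blood monocytes from mice of strain C57BL/6 LyzCre aged 6 to 8 weeks, of genotype TRIM33 on 6 arrays and WT on 6. The cells were sorted by flow cytometry as CD11b+, CD115+ and Ly6C high. LyzCre names a recombinase expressed from a lysozyme locus in myeloid cells, all 12 arrays carry that strain label, and the labels leave unsaid whether the WT mice have the recombinase. The TRIM33 allele itself is not described beyond the genotype label, and the series title speaks of TRIM33 deficiency in mature myeloid cells. No agent or treatment is named for either genotype. Both genotypes have 2 arrays whose titles call them a mix (mix 1 and mix 2), a word the labels do not explain. The labels do not name an animal for each array. A p-value here sets a difference against the spread between these arrays. That spread may be in part technical and need not be one between animals.

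Values are log2 expression values, on which a difference of 1 is a factor of 2, and levels were compared between arrays and not between genes. Array medians lay between 4.18 and 4.28. The targeted gene followed the labels: Trim33 was 6.92 ± 0.0794 (SD, n = 6) on WT arrays and 6.13 ± 0.0653 (SD, n = 6) on TRIM33 arrays (difference -0.79, SE 0.067; limma, Benjamini-Hochberg adjusted p = 0.000637). The monocyte marker Ly6c2 was high on every array, from 12.2 to 12.5, while the T cell gene Cd3e and the B cell gene Ms4a1 read no higher than 4.89 and 3.43. Other B cell genes read higher than Ms4a1: the mean of 4 measured B cell genes reached 5.42, on WT replicate 6. The mean of 6 measured T cell genes reached 4.33, on TRIM33 replicate 1.

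The arrays stood apart in a way that the genotype labels do not give. Xist, a long RNA by which female cells shut down an X chromosome, read 9.01 to 10.2 on 6 arrays and 3.36 to 3.64 on the other 6. The Y-linked gene Eif2s3y went the other way, with 2.19 to 2.89 on the first 6 and 8.09 to 8.47 on the others. These are called the high-Xist arrays (TRIM33 replicates 4, 5 and 6 and WT replicates 1, 2 and 3) and the low-Xist arrays (TRIM33 replicates 1, 2 and 3 and WT replicates 4, 5 and 6). Correlations over all genes ran from 0.986 to 0.992 between arrays of the same set and from 0.955 to 0.967 across sets. Each set holds 3 arrays of each genotype, and all 4 mixes are low-Xist arrays. Since the sets were read from the data and not from the labels, the differences between them are given as values, with no test. In bulk RNA, fewer cells in S phase and less of these transcripts in each cell cannot be told apart.

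DNA replication starts at origins, which the origin recognition complex, Cdc6 and Cdt1 load with MCM rings before S phase. Cdc45 and the GINS complex turn the loaded rings into working helicases, and polymerases, the Pcna clamp and its loader then copy the strands while ribonucleotide reductase and thymidylate synthase supply the nucleotides. Transcription of many of these genes is switched on by E2F factors late in G1, when cyclin-dependent kinases inactivate the RB proteins. Cells that have left the cycle express most of them little. Monocytes arise from dividing progenitors in bone marrow, and those in blood are held to be largely out of cycle.

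Promoter sequences are shown for 5 genes among the 10 whose array sets lay farthest apart, chosen because they span the nucleotide, helicase and licensing roles and hold the motif letters searched. Each is 170 bases long, written 5′ to 3′ on the gene's strand up to the base before the annotated start, from RefSeq on build GRCm38.p6. The lines are Rrm2 (Entrez gene 20135, chr12:24708084-24708253, plus strand), Rrm1 (Entrez gene 20133, chr7:102441525-102441694, plus strand), Mcm6 (Entrez gene 17219, chr1:128359706-128359875, minus strand), Mcm7 (Entrez gene 17220, chr5:138171884-138172053, minus strand) and Cdc6 (Entrez gene 23834, chr11:98907981-98908150, plus strand). Capitals mark E2F-type letters and CCAAT boxes, the second of which are read by the factor NF-Y.
Rrm2: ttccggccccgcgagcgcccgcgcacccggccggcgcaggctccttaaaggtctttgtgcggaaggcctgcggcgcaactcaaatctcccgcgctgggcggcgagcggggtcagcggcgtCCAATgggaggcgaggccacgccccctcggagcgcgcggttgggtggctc
Rrm1: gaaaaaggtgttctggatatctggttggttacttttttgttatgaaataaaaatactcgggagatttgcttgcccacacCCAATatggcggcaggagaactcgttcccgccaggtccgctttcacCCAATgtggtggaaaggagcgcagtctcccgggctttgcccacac
Mcm6: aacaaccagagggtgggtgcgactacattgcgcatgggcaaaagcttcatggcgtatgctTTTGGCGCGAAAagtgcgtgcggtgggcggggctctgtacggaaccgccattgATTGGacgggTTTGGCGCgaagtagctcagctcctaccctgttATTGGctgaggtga
Mcm7: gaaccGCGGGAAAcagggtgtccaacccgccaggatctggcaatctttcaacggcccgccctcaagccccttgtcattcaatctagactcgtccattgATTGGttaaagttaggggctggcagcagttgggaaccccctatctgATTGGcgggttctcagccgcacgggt
Cdc6: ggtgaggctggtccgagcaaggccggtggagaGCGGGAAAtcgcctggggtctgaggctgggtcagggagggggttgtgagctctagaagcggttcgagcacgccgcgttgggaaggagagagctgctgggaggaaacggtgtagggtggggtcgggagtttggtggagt
The CCAAT box of Rrm2 began 50 bases before the start, and those of Rrm1 began 91 and 45 bases before it. In Mcm6 an E2F-type match 110 bases before the start overlapped another on the opposite strand at 106, and a further match stood at 47, with CCAAT boxes on the opposite strand at 57 and 14. Mcm7 held an E2F-type match at 165 and CCAAT boxes at 72 and 26, and Cdc6 an E2F-type match at 138, all of them on the opposite strand.

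The search covered both strands of the 250 bases before the start. E2F-type meant TTTGGCGC, TTTCCCGC, TTTCGCGC or TTTGCCGC. A promoter was listed for 35 of the 39 genes, and 9 of the 35 (25.7%) held an E2F-type match (Orc1, Cdc6, Mcm5, Mcm6, Mcm7, Gins3, Rfc3, Uhrf1 and Dnmt1). The share was 2.72% among the 17519 array genes with a listed promoter. CCAAT stood in 20 of 35 (57.1%), against 38.9% of all. The letters TTTGAA, a form of the CHR element of genes expressed in G2 and M phase, stood in 5 of 35 (14.3%), against 16.1% of all and 10 of 22 (45.5%) mitosis genes. A match is a string of letters and not a measured binding site, and the arrays carry no binding data.

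All 39 replication genes were higher on the high-Xist arrays. For each of the 39, the lowest high-Xist array lay above the highest low-Xist array, a pattern met by 7.45% of all genes tested (1735 of 23279). The opposite order was met by 1533 genes and by none of the 39. The difference between the set medians had a median of 2.86 over the 39 genes and 0.00144 over all genes. It ran from 0.76 for E2f1 to 5.03 for Rrm2 and exceeded 1 for 38 of the 39, 2 for 27 and 3 for 17. The same limits were exceeded by 2.87%, 1.15% and 0.593% of all genes. Of the 100 genes with the largest differences on the array, 11 were replication genes, and all 39 were among the 1000 largest. Clustering the arrays on all genes in place of Xist gave the same sets, and so the same count. Leaving arrays out can only keep or widen a gap, so it could not lower the count of 39. Without the 4 mixes 14.3% of all genes met the pattern.

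**Figure D1:**
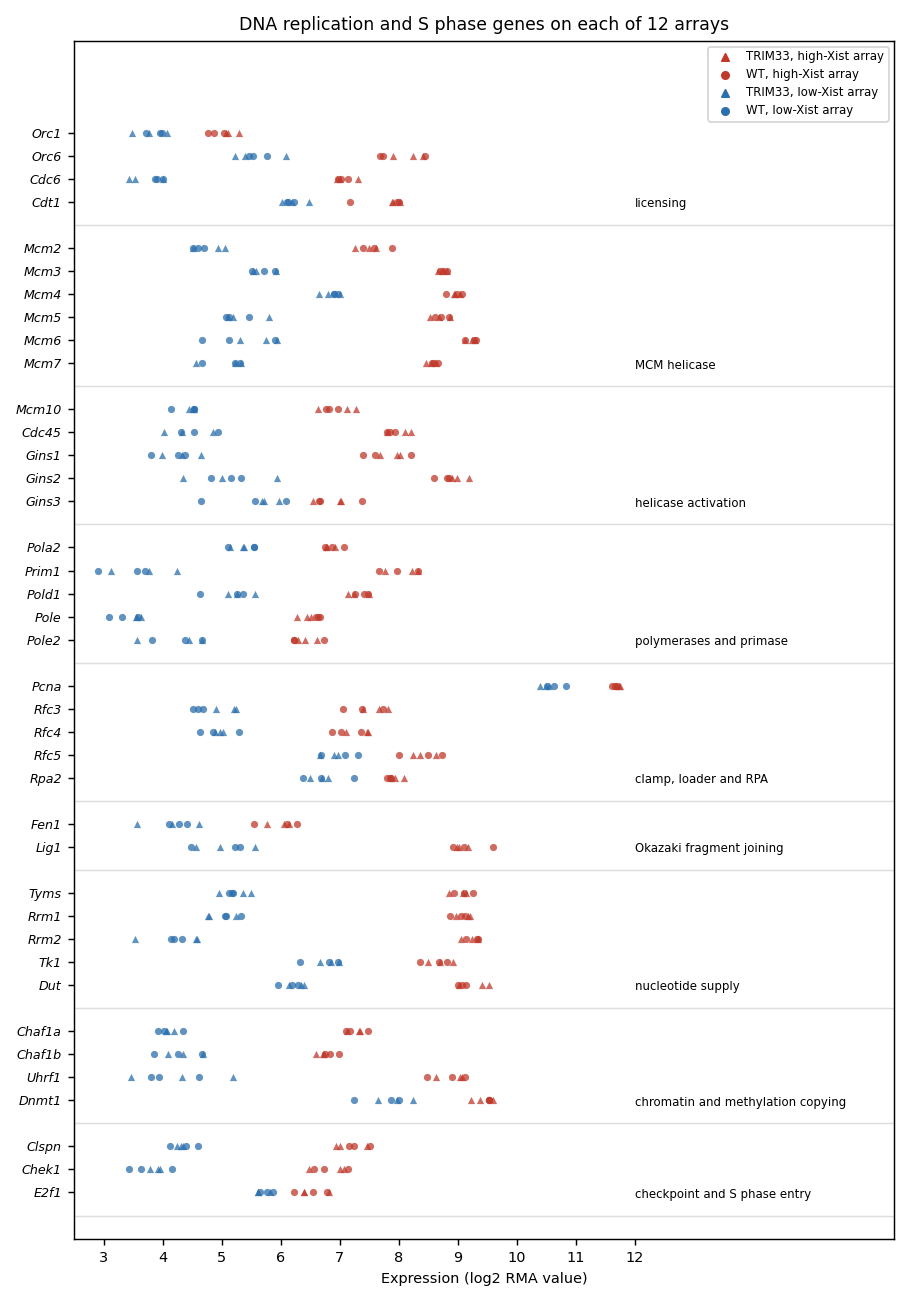
Log2 expression (horizontal axis) of the 39 replication genes, in rows grouped by role, on 12 arrays; each point is 1 array, red for high-Xist and blue for low-Xist, triangles for TRIM33 and circles for WT. In every row the red points lie to the right of the blue points.

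Nucleotide supply showed the widest separation. Rrm2, the small subunit of ribonucleotide reductase, which makes deoxynucleotides, read 3.53, 4.25 and 4.59 as lowest, median and highest low-Xist array and 9.05, 9.28 and 9.34 on the high-Xist arrays. A gap of 4.46 without any array separated the sets. The low-Xist median lay at the 50.7th percentile of all genes, where RMA values of dim genes are compressed, so no fold is given. The large subunit Rrm1 read 4.77, 5.06 and 5.33 on low-Xist arrays and 8.87, 9.09 and 9.21 on high-Xist arrays. Tyms, the thymidylate synthase (Entrez gene 22171), read 4.96, 5.18 and 5.50 against 8.85, 9.10 and 9.26. Both subunits of the reductase thus stood far apart between the sets, with set differences of 5.03 and 4.03. A processed copy of Tyms is listed in the genome, and no source used here says whether the probes tell it from the gene. Thymidine kinase Tk1, which salvages thymidine, differed by 1.85, and Dut, which removes dUTP, by 2.86.

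Of the licensing genes, Cdc6 moved most. It read 3.42, 3.88 and 4.0 on low-Xist arrays and 6.95, 7.01 and 7.30 on high-Xist arrays. Orc6, a subunit of the origin recognition complex, differed by 2.57, Cdt1 by 1.78 and Orc1 by 1.19. Cdc6 and Orc1 lay below the middle of all genes of the array in the low-Xist set and above it in the high-Xist set.

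All 6 subunits of the MCM2 to MCM7 ring, the motor of the replicative helicase, were higher on high-Xist arrays, by 2.06 (Mcm4) to 3.74 (Mcm6). Mcm6 read 4.67, 5.52 and 5.93 on low-Xist arrays and 9.12, 9.26 and 9.31 on high-Xist arrays. Mcm7 read 4.56, 5.23 and 5.33 against 8.46, 8.58 and 8.67, and Mcm2 read 4.51, 4.64 and 5.05 against 7.26, 7.53 and 7.88. For Mcm6 and Mcm7 the low-Xist arrays were spread more widely than the high-Xist arrays. Among the factors that activate the ring, Cdc45 (Entrez gene 12544) read 4.02, 4.42 and 4.94 against 7.80, 7.89 and 8.20. The GINS subunits, which join Cdc45 on the ring, were uneven: Gins1 differed by 3.54 and Gins2 by 3.81, but Gins3 by 1.14. Mcm10, needed for helicase start, differed by 2.37.

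Among the polymerase genes the primase subunit Prim1 (Entrez gene 19075), which lays down RNA primers, stood out. It read 2.90, 3.63 and 4.25 on low-Xist arrays and 7.66, 8.09 and 8.32 on high-Xist arrays. Pole, the catalytic subunit of the leading strand polymerase, differed by 3.01, and its partner Pole2 by 1.94. Pold1, the catalytic subunit of the lagging strand polymerase, differed by 2.07, and Pola2, a subunit of the primase complex, by 1.45. No array of either set crossed into the other for these 5 genes.

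Pcna, the sliding clamp that holds polymerases on DNA, had 1 of the smaller separations. It read 10.4, 10.5 and 10.8 on low-Xist arrays and 11.6, 11.7 and 11.7 on high-Xist arrays, a set difference of 1.15. Pcna has 2 listed pseudogenes, so part of its signal may not come from the gene. The clamp loader subunits Rfc3, Rfc4 and Rfc5 differed by 2.74, 2.30 and 1.5, and Rpa2, a subunit of the single-strand binding complex, by 1.18. In Okazaki fragment joining, the ligase Lig1 (Entrez gene 16881) read 4.47, 5.09 and 5.56 on low-Xist arrays and 8.91, 9.07 and 9.60 on high-Xist arrays. The flap nuclease Fen1, which trims the fragments, differed by 1.86. The clamp and RPA thus showed some of the smaller set differences and the ligase one of the larger.

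Uhrf1 (Entrez gene 18140), which reads newly copied, partly methylated DNA behind the fork, read 3.47, 4.14 and 5.19 on low-Xist arrays and 8.48, 8.97 and 9.12 on high-Xist arrays. Its low-Xist arrays covered the widest range of the 39 genes, with TRIM33 replicate 2 highest and TRIM33 replicate 3 lowest. Its partner Dnmt1, the methyltransferase that copies DNA methylation, differed by 1.61. Chaf1a and Chaf1b, which deposit histones on new DNA, differed by 3.19 and 2.44. The checkpoint genes Clspn and Chek1 differed by 2.88 and 3.01. E2f1, a factor that switches on S phase genes, had the smallest separation of all 39, with 5.61, 5.71 and 5.87 on low-Xist arrays against 6.22, 6.47 and 6.82 and a gap of 0.36.

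Lists of related genes are set beside the 39. Of 38 other replication genes, 31 had every high-Xist array above every low-Xist array and 7 overlapped (Orc4, Orc5, Mcmbp, Mcm9, Pold4, Dna2 and Fam111a), with a median set difference of 1.20. The largest was 3.78 for Hells, a chromatin remodeller. Of 12 measured other nucleotide supply genes, 6 were higher, 5 overlapped and Samhd1 was lower, by 0.68. Samhd1 breaks down deoxynucleotides. All 27 measured mitosis and G2/M genes were higher on high-Xist arrays, with a median difference of 4.27, and Top2a, which untangles chromosomes, differed by 6.36.

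Of 18 genes of E2F factors, RB proteins and G1/S cyclins, 11 were higher and 7 overlapped. The S phase cyclin Ccna2 differed by 6.38, cyclin E2 (Ccne2) by 3.07 and the repressor E2f8 by 2.84. E2f2, E2f3, E2f4, E2f5, Tfdp2, Rb1 and Rbl2 overlapped between the sets. Of 12 CDK inhibitor and D cyclin genes, Cdkn2c, Cdk4 and Cdk6 were higher and the other 9 overlapped, with a median difference of 0.22. The inhibitors Cdkn1a and Cdkn1b were among those that overlapped.

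**Figure D2:**
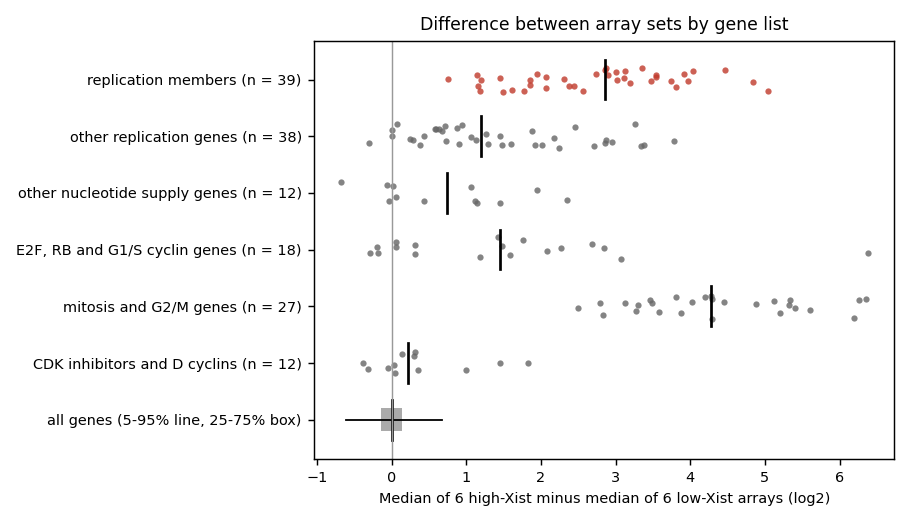
Median of the 6 high-Xist arrays minus median of the 6 low-Xist arrays (log2, horizontal axis); each point is 1 gene, vertical bars are list medians, and the bottom row shows the 5th to 95th percentile (line) and the 25th to 75th (box) of all 23279 genes. The medians are 2.86 for the 39 replication genes, 4.27 for mitosis genes, 1.20 for other replication genes and 0.22 for CDK inhibitors and D cyclins.

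Markers of some other cells moved with the sets. Of 10 myeloid progenitor genes, 6 were higher on every high-Xist array than on any low-Xist array (Cd34, Mpo, Elane, Prtn3, Ctsg and Myb), Flt3 was lower and 3 overlapped, among them Kit, which read 3.28 to 4.16 over all arrays. The mean of this list ran from 4.65 to 5.14 on low-Xist arrays and from 7.34 to 7.62 on high-Xist arrays. Of 10 neutrophil genes 5 were higher (list mean 5.25 to 6.70 on low-Xist and 6.63 to 7.31 on high-Xist arrays), while Ly6g read 2.87 to 3.82 over all arrays. Of 10 measured Ly6C-high monocyte genes 3 were lower on high-Xist arrays (Ccr2, Csf1r and Itgam) and 7 overlapped, with list means of 10.9 to 11.1 and 10.3 to 10.5. Platelet genes were lower in 3 of 5 (list mean 4.99 to 6.49 on low-Xist and 3.90 to 4.06 on high-Xist arrays), and among 3 erythroid genes Alas2 was lower (list mean 5.49 to 6.03 and 3.97 to 4.18). Of the measured lymphoid genes none was higher on high-Xist arrays, and 1 of 4 B cell, 2 of 6 T cell and 1 of 7 natural killer cell genes were lower. Over all 23279 genes, 1735 were higher by this rule and 1533 lower, so single genes of short lists say little. The part of these cell markers, of sex or of preparation in the replication gene differences was not tested.

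Within the low-Xist set the replication genes were spread more widely than within the high-Xist set. The range over 6 arrays had a median of 0.726 for the 39 genes on low-Xist arrays and 0.512 on high-Xist arrays, against 0.479 and 0.496 for all genes. It was wider on the low-Xist arrays for 31 of the 39 and for 47.4% of all genes. The mean over the 39 genes was 5.46 on TRIM33 replicate 2 and 5.08 to 5.28 on the other 5 low-Xist arrays, and 7.89 to 8.01 on the high-Xist arrays. TRIM33 replicate 2 was the highest low-Xist array for 20 of 39 genes (51.3%) and for all 6 MCM subunits. The share was 16.6% over all genes and 28.6% over the 1735 genes with every high-Xist array above every low-Xist array. TRIM33 replicate 2 was highest for 17 of the 32 replication genes that lay above the middle of the array in the low-Xist set. The same array had a mean of 5.10 over the mitosis genes, against 4.34 to 4.47 on the others, and of 6.70 over the neutrophil genes, against 5.25 to 5.73. Its mean of the myeloid progenitor genes was 5.14, against 4.65 to 4.87. Whether the cells that these markers name were present, or contributed to its replication gene values, was not tested.

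**Figure D3:**
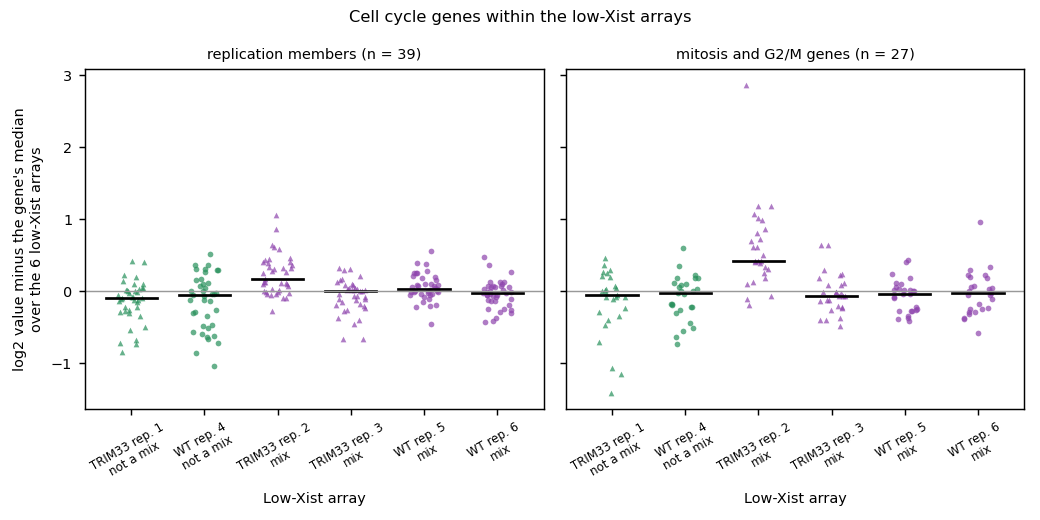
Deviation of each gene from its median over the 6 low-Xist arrays (log2, vertical axis), for the 39 replication genes (left) and 27 mitosis genes (right); each point is 1 gene on 1 array, triangles TRIM33 and circles WT, purple for arrays titled as mixes and green for others, and bars are medians. The median is 0.17 for the replication genes and 0.43 for the mitosis genes on TRIM33 replicate 2.

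The 4 mixes were compared with the 8 other arrays in a fit that also held genotype and array set, a comparison that rests on the low-Xist arrays since no high-Xist array is a mix. Mcm7 and Pole2 were higher in the mixes (limma, Benjamini-Hochberg adjusted p = 0.0155 and 0.0347), and 0.67% of all genes passed in either direction. Mcm7 read 4.56 on TRIM33 replicate 1 and 4.66 on WT replicate 4, which are not mixes, and 5.33, 5.23, 5.23 and 5.31 on the mixes, a difference of 0.67 (SE 0.110). Pole2 read 3.57 and 3.81 on the same arrays and 4.66, 4.44, 4.66 and 4.37 on the mixes, a difference of 0.84 (SE 0.167). For both genes every mix lay above both other low-Xist arrays, as it did for 11 of the 39 genes (28.2%) and for 10.6% of all genes. Markers of some other cells moved with the same split. The erythroid list mean was 5.85 to 6.03 on the mixes against 5.49 and 5.53 on TRIM33 replicate 1 and WT replicate 4. On the same arrays the platelet mean was 5.67 to 6.49 against 4.99 and 5.62. The T cell mean was 3.76 to 4.11 against 4.33 and 4.23. The neutrophil mean was 6.70 and 5.73 on the TRIM33 mixes against 5.25 on TRIM33 replicate 1. On the WT mixes it was 5.46 and 5.49, hardly apart from 5.46 on WT replicate 4. The B cell, natural killer cell, myeloid progenitor and Ly6C-high monocyte means overlapped between the mixes and these arrays. The part of any of these markers in the mix differences was not tested. The calls rest on few arrays, since the genes passing fell from 156 to 19 without WT replicate 4, to 79 without TRIM33 replicate 1, to 92 without TRIM33 replicate 3 and to 97 without WT replicate 5. Neither gene passed without TRIM33 replicate 1 (Mcm7 adjusted p = 0.127, Pole2 0.304) or without WT replicate 4 (0.122 and 0.135), when 1 low-Xist array that is not a mix is left to stand for its kind. Pole2 also missed the threshold without TRIM33 replicate 2 (0.0771), TRIM33 replicate 3 (0.0637), TRIM33 replicate 4 (0.0575) or WT replicate 5 (0.0916), each in the same limma fit. Lig1 passed as well without WT replicate 2, and Mcm6 without WT replicate 6.

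The comparison of genotypes asks whether the replication genes of these monocytes differed between genotypes TRIM33 and WT. The Trim33 signal was lower but not absent on TRIM33 arrays (mean 6.13, against 6.92 on WT arrays). The extent of its loss is not known here. None of the 39 passed the test in limma with genotype as the only term, in which 0.0215% of all genes passed (5 of 23279). None reached an unadjusted p under 0.05 either, a level reached by 3.07% of all genes. The TRIM33 minus WT differences ran from -0.12 for Clspn to 0.38 for Rfc3, with a median of 0.02 over the 39 genes and -0.01 over all genes. They were above 0 for 23 genes and below 0 for 16. In this fit the array sets count as spread, and the SE of a difference had a median of 0.794 over the 39 genes. The fit could resolve only large differences in these genes, so the lack of small p-values among them adds little.

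With the array set as a block the median SE fell to 0.126 and 0 of the 39 genes passed, against 0.0387% of all genes (9). Each 95% interval of that fit lay between -0.45 and 0.65, so larger differences in either direction are outside the interval of every one of these genes. For Rrm2 it ran from -0.35 to 0.30 around -0.02, for Mcm2 from -0.23 to 0.30 around 0.04, for Pcna from -0.24 to 0.12 around -0.06 and for E2f1 from -0.27 to 0.20 around -0.04. For the licensing factor Cdt1 it ran from -0.14 to 0.43 and for Gins3 from -0.29 to 0.61. Differences smaller than these intervals were not resolved by 6 arrays a genotype.

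Rfc3, a clamp loader subunit, had the largest genotype difference and was alone among the 39 (2.56%) in reaching an unadjusted p under 0.05 with the block, a level reached by 5.28% of all genes. It read 5.21, 5.23 and 4.89 on the low-Xist TRIM33 arrays and 4.51, 4.69 and 4.59 on the low-Xist WT arrays. On the high-Xist arrays it read 7.67, 7.81 and 7.38 in TRIM33 and 7.05, 7.73 and 7.37 in WT, which overlapped. The difference was 0.38 (SE 0.123, 95% interval 0.11 to 0.64), and it did not pass (limma with the block, adjusted p = 0.727). Rfc4 and Rfc5, which sit in the same loader, differed by 0.15 and -0.09 in that fit.

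**Figure D4:**
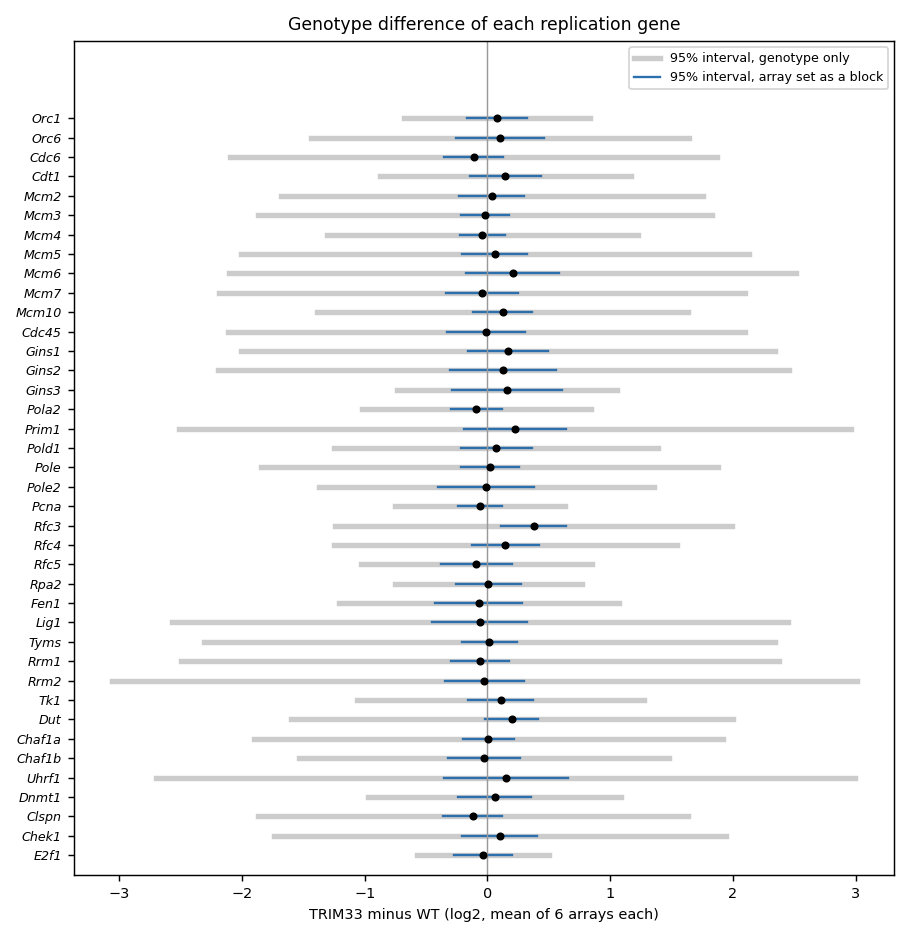
TRIM33 minus WT difference of each of the 39 replication genes (log2, horizontal axis; 6 arrays a genotype); points are estimates, grey bars the 95% intervals with genotype only and blue bars those with the array set as a block. Every grey bar spans 0, and so does every blue bar except that of Rfc3.

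Within the high-Xist arrays, 3 of each genotype, 0 of the 39 genes passed and 0.0129% of all genes did, and the smallest adjusted p of the 39 was 0.962 in limma. Within the low-Xist arrays 0 passed against 0.0344% of all genes, and the smallest adjusted p was 0.991, with Rfc3 at 0.52 (SE 0.133). The test of whether the genotype difference itself differed between the sets called 0 of the 39 and 0.0043% of all genes. Pole had the smallest p for it: TRIM33 arrays read 6.28, 6.52 and 6.44 and WT arrays 6.60, 6.66 and 6.63 in the high-Xist set, and 3.56, 3.55 and 3.64 against 3.08, 3.58 and 3.31 in the low-Xist set (interaction -0.48, SE 0.185; limma, adjusted p = 0.996).

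The other lists gave 0 genes past the threshold for genotype in limma, with or without the block: 0 of 38 other replication genes, 0 of 12 other nucleotide supply genes, 0 of 18 E2F, RB and G1/S cyclin genes, 0 of 27 mitosis genes and 0 of 12 CDK inhibitors and D cyclins. At an unadjusted p under 0.05 these lists held 0 genes without the block, and 2, 2, 0, 0 and 0 with it, where 5.28% of all genes reached that level. In the fit without the block, the smallest p of each list belonged to Donson, a replication fork gene (-0.32, SE 0.217), to Dck, the deoxycytidine kinase (0.14, SE 0.074), to E2f4, an E2F repressor (-0.14, SE 0.110), to Ccnb2, a mitotic cyclin (0.56, SE 1.49), and to Cdkn1c, a CDK inhibitor (-0.20, SE 0.107). The Ccnb2 estimate carried the widest error of these 5. On TRIM33 replicate 2 Ccnb2 lay 2.86 above its median over the low-Xist arrays. On the other low-Xist arrays it lay at most 0.64 above that median.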

How the data were processed

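Total RNA (900 pg) was amplified with the NuGEN Ovation Pico V2 protocol, per the labels' protocols. The authors deposited log2 expression values, made with RMA and Partek per the submitters' processing notes; no source used here gives versions, a chip definition, a genome build or a batch step. RMA equalises arrays, so a change common to most genes would be lost, and it compresses differences of dim genes. Arrays carry no counting depth, and their number limits the precision. Where the labels' treatment text describes T cells, the source names and design (monocytes) were followed.

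Of 24479 features 23281 had a symbol, and 2 symbols had several features, of which the brighter was kept, for 23279 genes in all. Members and lists were chosen with earlier results of these data known. All genes were fitted with lmFit and eBayes (limma 3.58.1, R 4.3.3), genotype only, Benjamini-Hochberg threshold 0.05, after the code was tested on simulated data. Array sets were parted at the middle of the Xist range. Named in full were the 10 genes with the largest gap between sets and the 3 with the smallest genotype p. Pcna, Mcm2, Rrm2, E2f1 and the list genes of smallest p without the block were also named in full. Hells, Top2a, Samhd1, Ccna2, Ccne2, E2f8, Pole, Ly6c2, Cd3e, Ms4a1, Ly6g and Kit were named after their values were seen. So were Rnaseh2b, Umps and Ctps. Alternatives are listed in the closing section. Figures used matplotlib 3.10.9.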

Additional observations from a re-analysis of the deposited data

How the results depend on the processing

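The count of 0 of 39 replication genes past the genotype threshold held in every setting run: array set as a block, each set alone, without the mixes, quantile normalization, median centring, brighter genes only, other variance models, array weights, the mix number as a replicate block, and each array left out. In settings that pooled both sets without the block, the sets count as spread (median SE 0.599 to 0.861 over the 39 genes). Those fits could resolve only large differences, so their 0 adds little. The median SE was 0.126 with the block, and 0.145 and 0.181 on high-Xist and low-Xist arrays alone. Over all genes the 5 calls became 9 with the array set as a block, 3 on high-Xist and 8 on low-Xist arrays alone, and 0 without the mixes, where 565 genes had an unadjusted p under 0.05 in limma. They ranged from 5 to 9 with each array left out in turn (9 without TRIM33 replicate 4). The replicate block of mix numbers gave 6 calls, 0 among the replication genes. The 2 pairs of mixes share only a number (correlation of mix differences between genotypes 0.118 over genes).

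Leaving an array out of the fit without the block unbalances the sets and so moves all replication genes together: their median difference then ranged from -0.26 to 0.36, Gins3 from -0.14 to 0.40 and Cdt1 from -0.040 to 0.36. With the set as a block the same leave-outs gave a median of -0.039 to 0.075, Gins3 -0.035 to 0.29 and Cdt1 0.017 to 0.20. Gins3 read -0.035 on high-Xist arrays alone. Trim33 stayed between -0.77 and -0.79 on high-Xist arrays, low-Xist arrays and without the mixes, past the threshold in none of them.

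The fit of mixes against other arrays, the parting by clustering and the leave-outs under the set block were chosen after seeing the data. Dim genes near the array background limit what low-Xist levels can show: 7 of the 39 genes lay below the middle of all genes there, and Rrm2 just above it.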
